A study of Rattus norvegicus with 6 samples.

Results

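The TNF superfamily ligands, their receptors and the TRAF adaptors were examined in rat brain microvascular endothelial cells (rBMECs) exposed to homocysteine (Hcy). Members were the rows of the deposited gene count table whose gene name starts with Tnfsf or Tnfrsf followed by a digit, is Traf1 to Traf7, or is Tnf, Lta, Ltb, Ltbr, Fas, Faslg, Cd40, Cd40lg, Cd27 or Cd70. By this rule 45 of 33566 rows were members, of which 17 encode ligands, 21 receptors and 7 TRAF adaptors.

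Poly(A) RNA was sequenced from 6 libraries of primary rBMECs, 3 from cells given 100 μM Hcy for 24 h and 3 from vehicle (Veh) cultures given ddH2O for the same time. The treatment notes also name a prepared Hcy solution of 50 μM, so the dose cannot be fixed from the sources used here. The cells came from the cerebral cortex of SD rats aged 18 to 22 days (the methods of the study say forebrain), were isolated and purified with kit solutions, and were treated after 1 passage. No genotype, sex or number of animals per library was given. The libraries of a group are described as biological replicates without further detail, so the p-values below measure the spread between these libraries.

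Most ligands of the TNF superfamily are trimers on the cell surface that can also be shed, and they cluster their receptors on the neighbouring cell. Receptors with a death domain, such as Tnfrsf1a and Fas, can recruit caspase-activating adaptors, whereas others, such as Tnfrsf1b, Cd40 and Ltbr, bind TRAF proteins directly and lead to NF-κB and MAP kinase signalling. Endothelial cells respond to TNF with adhesion molecules and chemokines that recruit leukocytes, and they carry ligands such as Tnfsf18 and Tnfsf4 whose receptors are mainly on T cells.

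Library totals lay between 14024997 and 16764584 counts, so that 3 counts, taken as the floor, correspond to 0.178 to 0.215 CPM (counts scaled to library size). Such floors cover counting error only. Veh replicate 3 stood apart from the other vehicle libraries: its counts differed from those of Veh replicates 1 and 2 by a chi-square per degree of freedom of 27.7 and 24.6, against 5.52 to 7.39 for the other pairs within a group. Of 16 endothelial markers, 14 had a row and 13 were above the floor, whereas the tight junction gene Cldn5 was at 0 in each library. The summed level of the endothelial list was 8441 to 9684 CPM in Veh and 9944 to 10354 CPM in Hcy, with Vwf, its most abundant gene, at 2288 and 2933 CPM. The list did not move one way, as Vwf, Tie1, Flt1 and Kdr were higher and Slc2a1, Tek, Slco1a4 and Mfsd2a lower in Hcy without overlap, each with an adjusted p above 0.05. Of 4 smooth muscle markers, 3 moved with the groups: Tagln (log2 fold change -0.88, adjusted p = 0.000801 with edgeR's quasi-likelihood test), Cnn1 (-1.39, adjusted p = 0.00177) and Acta2 (-0.64, adjusted p = 0.0248) were lower in Hcy. Myh11, at only 1.23 CPM in Veh and 1.20 CPM in Hcy, was not called. Tagln, at 1071 and 582 CPM, made up most of the sum of these 4 genes, which was 1120 to 1348 CPM in Veh and 673 to 702 CPM in Hcy. Their part in the results below was not tested. The microglia and macrophage list summed to 1.52 to 1.72 CPM in Veh and 1.68 to 2.66 CPM in Hcy with Ptprc, Cx3cr1 and Tyrobp at 0, and the T and B lymphocyte list to at most 0.336 CPM with Cd3e, Cd3d, Cd3g and Ms4a1 at 0. Astrocyte (at most 1.11 CPM, Aqp4 and Slc1a2 at 0) and pericyte markers (3.50 to 4.50 CPM in Veh, 4.59 to 7.39 CPM in Hcy) were low, fibroblast markers summed to 57.5 to 83.9 CPM in Veh and 35.7 to 57.8 CPM in Hcy, neuronal markers to 5.22 to 7.18 and 6.98 to 9.77 CPM, and oligodendrocyte markers to 10.6 to 12.2 CPM over all libraries. In bulk RNA, fewer cells of a type and less RNA per cell cannot be told apart.

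The first question was which parts of the family the rBMECs expressed at all. Of the 45 members, 27 had at least 10 counts summed over the 6 libraries and were tested, 6 had 1 to 9 counts and 12 had none. All 7 TRAFs and 14 of 21 receptors were tested, but only 6 of 17 ligands. Tnf itself was listed at 0 in each library, as were Lta, Cd40lg, Cd70, Tnfsf11, Tnfsf13b, Tnfsf14 and Tnfsf15 among the ligands, and Tnfrsf13b, Tnfrsf14, Tnfrsf17 and Tnfrsf18 among the receptors. A 0 in this table says that no read was assigned to the row: the endothelial marker Cldn5 was also at 0 in each library, and a second row matched to Tnfsf11, LOC103689974, was at 0 as well. Whether annotation or the handling of multi-mapping reads plays a part was not tested. Ltb had 2 counts, both in Hcy replicate 1, and Tnfsf8 had 4 counts, all in the same library. Faslg had 1 count in Veh replicate 2, 1 in Hcy replicate 1 and 3 in Hcy replicate 3, while the lymphocyte receptor Cd27 had 1 count in Veh replicate 3. Tnfrsf4 was read 3, 2 and 3 times in Veh replicates 1, 2 and 3 and 0, 1 and 0 times in the Hcy replicates, and Tnfrsf8 2, 3 and 0 times against 0, 0 and 3 times. These 6 rows were too sparse to test.

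Levels of different genes were compared as CPM divided by gene length in kilobases (CPM per kb). Among ligands in Veh, Tnfsf18, the ligand of the T cell receptor GITR, stood first at 117 ± 0.570 CPM per kb (SD, n = 3), followed by Tnfsf12 at 20.8 ± 3.39 and Tnfsf4 at 15.1 ± 0.835. The Veh libraries of these 3 ligands did not overlap one another. Tnfsf13 followed at 2.37 ± 0.273, Tnfsf10 at 0.205 ± 0.00937 and Tnfsf9 at 0.0607 ± 0.105 CPM per kb. Among receptors, Tnfrsf12a, the receptor of Tnfsf12, was the most abundant at 312 ± 23.8 CPM per kb, ahead of Tnfrsf1a at 63.8 ± 4.40 and Ltbr at 48.2 ± 3.13. The next receptors did not separate beyond their spread: Tnfrsf26 lay at 16.1 to 18.0 and Tnfrsf11b at up to 16.8 CPM per kb across the Veh libraries. Fas (10.3 to 12.1) stood above Tnfrsf21 (7.99 to 9.48), and Tnfrsf21, Tnfrsf1b (7.70 to 8.13) and Cd40 (5.83 to 7.68) followed, the libraries of Tnfrsf21 and Tnfrsf1b overlapping. Traf7, which carries WD40 repeats in place of the TRAF domain, led the adaptors at 31.6 ± 0.890 CPM per kb, and Traf5 was the lowest of the 7 at 2.85 ± 0.277.

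**Figure D1:**
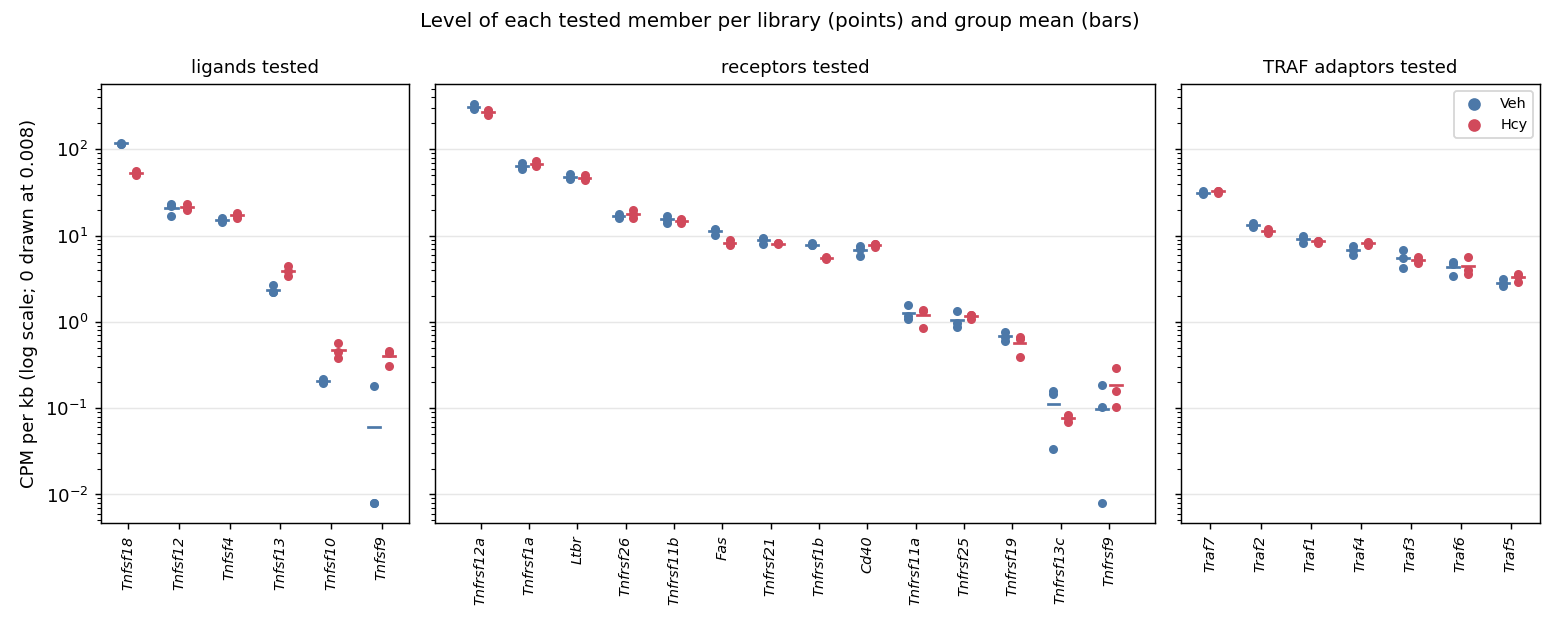
Level of the 27 tested members in CPM per kb (log axis, with values of 0 drawn near its lower end), with 1 point per library and a bar at the group mean, ordered by the Veh level within ligands, receptors and TRAF adaptors. Tnfsf18 and Tnfrsf12a lead their classes in both groups, and Tnfsf18 drops from 117 to 52.7 CPM per kb in Hcy.

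The second question was which members differed between Hcy and Veh. Tnfsf18 and Tnfrsf1b were lower in Hcy, and no member was called higher. In the test over all 14603 genes, 341 genes (2.34%) had an adjusted p of at most 0.05, 193 higher (1.32%) and 148 lower (1.01%) in Hcy. Of the 27 members tested, 2 (7.41%) were called, 0 higher and 2 lower. Both counts depend on the libraries: without Veh replicate 3 there were 957 calls over all genes and 2 among the members, and without any 1 of the others 80 to 151 calls over all genes and 1 among the members. At an unadjusted p of at most 0.05, 8 members (29.6%) passed, 3 higher and 5 lower, against 13.4% of all genes, and with DESeq2 no member was called higher either. When the study's limit of 1 on the size of the log2 fold change was added, 0.486% of all genes and 1 member, Tnfsf18, were called. The libraries of the groups did not overlap for 10 members (37.0%), 5 higher and 5 lower in Hcy, against 20.1% of all genes (10.8% higher and 9.27% lower). By fitted value 14 members were higher and 13 lower, with a median log2 fold change of 0.02 beside -0.02 over all genes tested. The count minimum shapes these totals, since Tnfsf9 and Tnfrsf9 passed it through the Hcy libraries alone.

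**Figure D2:**
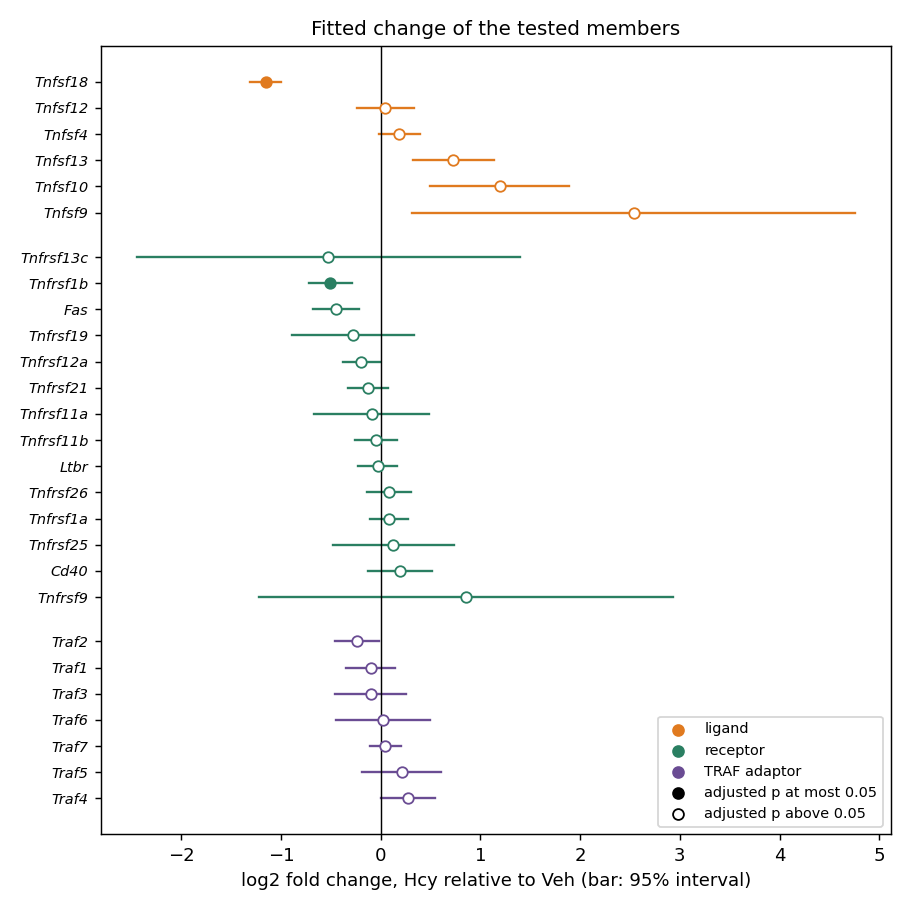
Fitted log2 fold change of Hcy relative to Veh for the 27 tested members with its 95% interval, coloured by class, with filled points for an adjusted p of at most 0.05. The filled points, Tnfsf18 at -1.15 and Tnfrsf1b at -0.51, lie below 0, and the widest intervals belong to rare transcripts such as Tnfsf9, Tnfrsf13c and Tnfrsf9.

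The 3 members with the smallest p, Tnfsf18, Tnfrsf1b and Fas, were all lower in Hcy, and their promoters are shown so that the sequence ahead of each start can be compared. Each is the RefSeq window of 250 bases before the gene's start on GRCr8, 5′ to 3′ on the gene's strand. Capitals mark matches, on either strand, to the TATA box (TATAAA), the AP-1 motif (TGANTCA) and the κB consensus. Matches to different motifs did not overlap in these windows.
Tnfsf18, chr13:76366603-76366852, plus strand: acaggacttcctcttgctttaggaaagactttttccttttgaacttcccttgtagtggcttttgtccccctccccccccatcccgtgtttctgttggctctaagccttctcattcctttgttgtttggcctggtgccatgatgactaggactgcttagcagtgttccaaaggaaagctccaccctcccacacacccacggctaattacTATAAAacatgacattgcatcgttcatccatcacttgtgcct
Tnfrsf1b, chr5:162387412-162387661, minus strand: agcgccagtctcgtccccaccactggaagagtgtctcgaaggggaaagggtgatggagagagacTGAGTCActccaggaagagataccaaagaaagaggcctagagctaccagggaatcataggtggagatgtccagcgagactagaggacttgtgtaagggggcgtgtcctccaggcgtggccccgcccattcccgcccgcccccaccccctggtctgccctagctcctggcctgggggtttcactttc
Fas, chr1:241211905-241212154, plus strand: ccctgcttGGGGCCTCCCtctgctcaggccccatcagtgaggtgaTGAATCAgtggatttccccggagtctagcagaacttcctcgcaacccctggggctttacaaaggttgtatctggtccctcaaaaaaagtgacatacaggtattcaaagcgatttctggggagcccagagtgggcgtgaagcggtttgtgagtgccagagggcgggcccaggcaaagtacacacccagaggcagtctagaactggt
In the Tnfsf18 window the TATA box begins 42 bases before the start. An AP-1 motif begins 186 bases before the start in the Tnfrsf1b window and 205 bases before it in the Fas window, which also holds a κB match 242 bases before the start that reads as a match on both strands. Over all 33469 windows of this length, the TATA box occurred in 12.9%, the AP-1 motif in 6.34% and the κB consensus in 6.33%. Of the 35 members with a window, 7 held the TATA box (Faslg, Lta, Tnf, Tnfrsf17, Tnfsf11, Tnfsf15 and Tnfsf18), 4 the AP-1 motif (Fas, Tnfrsf1b, Tnfrsf8 and Traf1) and 7 the κB consensus (Fas, Lta, Ltb, Tnfrsf8, Tnfsf14, Traf3 and Traf7). The Tnfsf18 window shared none of these motifs with either receptor. A match describes the letters of the window and is no evidence of binding. Windows were not used for Tnfsf12, Tnfsf4, Tnfsf9, Cd40lg, Tnfrsf11b, Cd40, Tnfrsf11a, Tnfrsf14, Tnfrsf18 and Traf6.

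Among the ligands, 1 of the 6 tested was called (16.7%, against 2.34% of all genes), and the groups did not overlap for 5 of them, 4 higher and 1 lower in Hcy, beside 20.1% of all genes. One of the higher ligands, Tnfsf9, passed the count minimum through the Hcy libraries alone, and without it the groups did not overlap for 4 of 5, 3 higher and 1 lower. Tnfsf18 (ENSRNOG00000026607, listed at chromosome 13, 79378733 to 79388498, plus strand, protein coding) held 4097, 3809 and 3539 counts in Veh replicates 1, 2 and 3 and 1472, 1595 and 1943 counts in the Hcy replicates. Each Hcy library was far below each Veh library, whose levels were nearly equal. The level was 244 ± 1.19 CPM in Veh and 109.6 ± 5.55 CPM in Hcy (SD, n = 3 each), which is 2.22-fold lower (log2 fold change -1.15, SE 0.07, 95% interval -1.31 to -0.996, adjusted p = 0.000134 with edgeR's quasi-likelihood test). By p it ranked 5th of all genes tested, and without Veh replicate 3 the log2 fold change was -1.15. Its receptor Tnfrsf18 was listed at 0 in each library.

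Tnfsf4, the ligand of OX40, lies 84955 bp from Tnfsf18 on the listed chromosome 13 and was not called. Its counts were 478, 399 and 394 in Veh and 399, 466 and 541 in Hcy, or 27.0 ± 1.49 and 30.7 ± 1.88 CPM (log2 fold change 0.19, SE 0.09, adjusted p = 0.444). The Hcy libraries were slightly above the Veh libraries after scaling. Within a library the ratio of Tnfsf18 to Tnfsf4, each per length, was 7.36, 8.19 and 7.71 in Veh replicates 1, 2 and 3 and 3.17, 2.94 and 3.08 in the Hcy replicates. Its mean was 2.53-fold lower in Hcy (7.75 ± 0.420 against 3.06 ± 0.116), given without a test because the pair was chosen after its values were seen. Faslg, the ligand of Fas, is listed 309947 bp beyond Tnfsf18 and was too sparse to test.

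Tnfsf13 (APRIL), known for its receptors on B cells and plasma cells, held 78, 60 and 55 counts in Veh and 107, 88 and 113 in Hcy. Its level was 4.09 ± 0.471 CPM in Veh and 6.78 ± 0.887 CPM in Hcy, with no overlap between the groups, but it did not pass the adjustment (log2 fold change 0.73, SE 0.18, adjusted p = 0.0874). Its receptors Tnfrsf13b and Tnfrsf17 were listed at 0. Another member, Tnfrsf13c, which is not counted as a receptor of Tnfsf13 here, had 1, 4 and 4 counts in Veh and 2, 2 and 2 in Hcy. Tnfsf12 (TWEAK), listed 828 bp away on the same strand of chromosome 10, had 568, 411 and 523 counts in Veh and 451, 534 and 518 in Hcy, and these ranges overlapped (log2 fold change 0.05, SE 0.13, 95% interval -0.24 to 0.33, adjusted p = 0.928). The ratio of Tnfsf13 to Tnfsf12 within a library, per length, was 0.123, 0.130 and 0.0938 in Veh and 0.212, 0.147 and 0.195 in Hcy, a pair again chosen after its values were seen. Transcripts that run from one of these neighbours into the other are known in mammals, so reads at their border may not be assigned cleanly.

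Tnfsf10 (TRAIL), a death ligand, was rare, with 13, 13 and 11 counts in Veh and 24, 22 and 37 in Hcy. The Hcy libraries were all above the Veh libraries (1.80 ± 0.372 against 0.787 ± 0.0360 CPM), and the log2 fold change was 1.19 (SE 0.31, 95% interval 0.50 to 1.88, adjusted p = 0.0966). A row named AABR07018323.1 is outside the naming rule, and its protein match in the table is mouse Tnfrsf10b, the TRAIL receptor. It had 1227, 1112 and 825 counts in Veh and 1091, 1304 and 1369 in Hcy (log2 fold change 0.30, SE 0.10, adjusted p = 0.222). After scaling its groups did not overlap, at 57.1 to 72.8 CPM in Veh and 78.3 to 87.6 CPM in Hcy. Over all genes, 10.8% were higher in Hcy without overlap. Tnfsf9 (4-1BB ligand) had 4, 0 and 0 counts in Veh and 8, 6 and 10 in Hcy. Its fitted log2 fold change of 2.54 (SE 0.98, adjusted p = 0.262) depends on the prior count and was 1.62 with a prior count of 2. It also rests on Veh replicate 1, which held all of its Veh counts: without that library the fitted value was 6.02, which is no bound because the remaining Veh libraries were at 0. Its receptor Tnfrsf9 had 3, 5 and 0 counts in Veh and 7, 4 and 3 in Hcy, with overlapping groups.

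**Figure D3:**
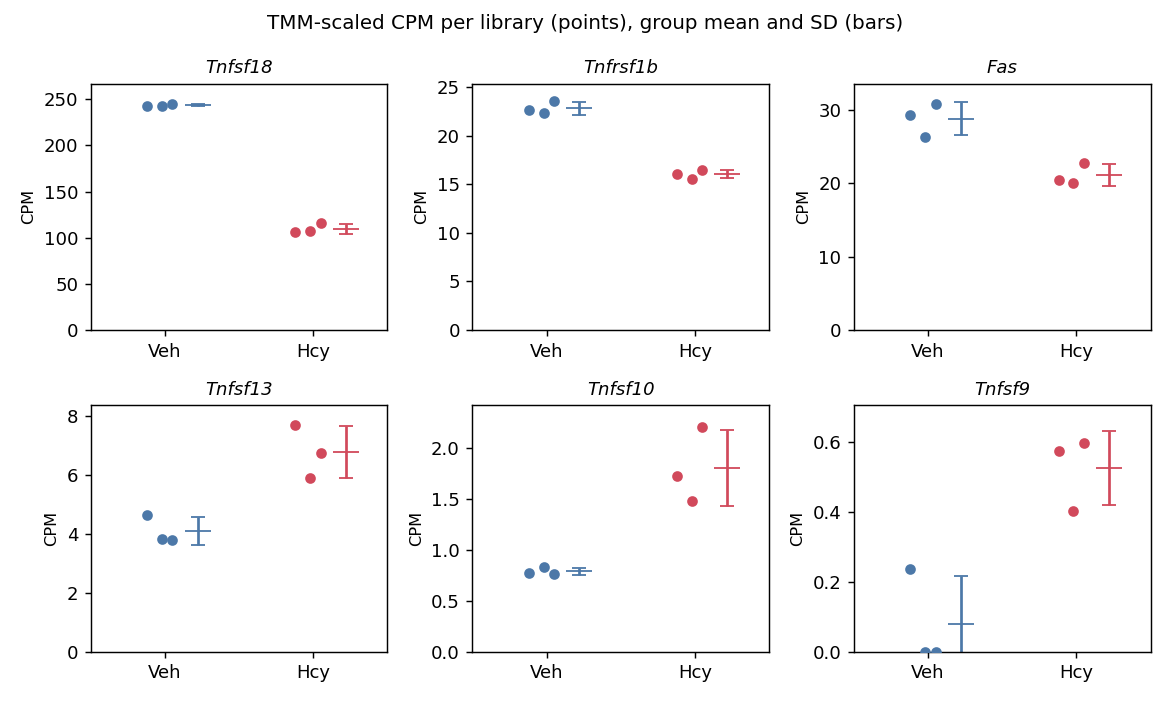
TMM-scaled CPM of the 6 members with the smallest p, with 1 point per library and the group mean and SD beside them. The axes start at 0, and the lower SD bar of Tnfsf9 in Veh is cut there. In each panel the groups do not overlap, with Tnfsf18, Tnfrsf1b and Fas lower and Tnfsf13, Tnfsf10 and Tnfsf9 higher in Hcy, and 2 of these, Tnfsf18 and Tnfrsf1b, were called.

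Among the receptors, 1 of the 14 tested was called (7.14%, against 2.34% of all genes). The groups did not overlap for 3, each lower in Hcy, and this share of 21.4% is near the 20.1% of all genes. Tnfrsf1b (TNFR2, ENSRNOG00000016575, listed at chromosome 5, 163136390 to 163167299, minus strand, protein coding) held 381, 350 and 340 counts in Veh and 224, 232 and 276 in Hcy. After scaling, all Veh libraries lay between 22.3 and 23.5 CPM and all Hcy libraries between 15.6 and 16.5 CPM. Its fitted level in Hcy was 0.704 times that in Veh (log2 fold change -0.51, SE 0.09, 95% interval -0.72 to -0.29, adjusted p = 0.0288 with edgeR's quasi-likelihood test). Without Veh replicate 3 it was -0.48 with an adjusted p of 0.0207, whereas leaving out any 1 of the other libraries gave adjusted p of 0.0883 to 0.142.

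Tnfrsf1a (TNFR1), the other TNF receptor and the one with a death domain, held 2470, 2012 and 1940 counts in Veh and 2183, 2019 and 2378 in Hcy. The groups overlapped at 136 ± 9.39 and 145 ± 10.9 CPM, and the interval of the log2 fold change ran from -0.11 to 0.28 (estimate 0.09, adjusted p = 0.741). Per length, the ratio of Tnfrsf1b to Tnfrsf1a was 0.114, 0.128 and 0.129 in Veh and 0.0757, 0.0848 and 0.0857 in Hcy. The mean ratio was 1.51-fold lower in Hcy (0.124 ± 0.00869 against 0.0821 ± 0.00550, no test, pair chosen after its values were seen).

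**Figure D4:**
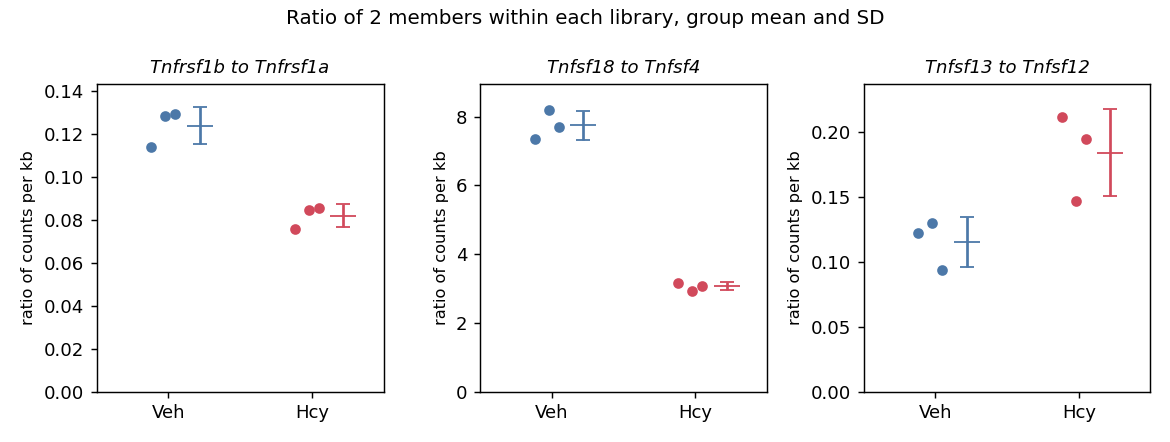
Ratio of 2 members within each library, each per length (1 point per library, with the group mean and SD; axes start at 0). The ratios of Tnfrsf1b to Tnfrsf1a and of Tnfsf18 to Tnfsf4 are lower in each Hcy library than in each Veh library, and that of Tnfsf13 to Tnfsf12 is higher.

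Fas, the receptor of Faslg, lay just outside the threshold, with 495, 413 and 445 counts in Veh and 285, 299 and 382 in Hcy. Levels were 28.8 ± 2.29 and 21.1 ± 1.47 CPM without overlap (log2 fold change -0.45, SE 0.10, adjusted p = 0.0640). DESeq2 gave it an adjusted p of 0.0214. With edgeR it was 0.0504 without Veh replicate 3 and 0.0864 to 0.247 when any other library was left out. Tnfrsf12a (Fn14) held 4898, 4467 and 4724 counts in Veh and 3778, 3585 and 4635 in Hcy, a small difference in which the groups did not overlap after scaling (301 ± 22.9 against 263 ± 19.3 CPM, log2 fold change -0.19, SE 0.08, adjusted p = 0.358).

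The remaining receptors that were tested overlapped between the groups. Ltbr, the lymphotoxin β receptor, had 1644, 1492 and 1551 counts in Veh and 1472, 1349 and 1626 in Hcy (log2 fold change -0.03, 95% interval -0.23 to 0.16). Cd40, which on endothelium receives the signal of Cd40lg from T cells and platelets, had 161, 126 and 153 against 154, 163 and 171 counts (0.19, interval -0.13 to 0.51). Tnfrsf11b (osteoprotegerin), a soluble decoy for Tnfsf11, had 751, 767 and 585 against 562, 659 and 753 counts (-0.05, interval -0.26 to 0.16). Its membrane-bound counterpart Tnfrsf11a (RANK) had 56, 49 and 65 against 34, 58 and 65 counts, and Tnfsf11 was listed at 0. Tnfrsf21 (death receptor 6) and Tnfrsf19 (Troy), known for roles in vessel growth and barrier formation in the brain, had log2 fold changes of -0.13 (interval -0.33 to 0.07) and -0.28 (-0.89 to 0.34). Tnfrsf25, the receptor of Tnfsf15, had 24, 34 and 23 counts in Veh and 27, 26 and 33 in Hcy, while Tnfsf15 was listed at 0. Tnfrsf26 had 680, 691 and 567 against 601, 587 and 808 counts (0.08, interval -0.13 to 0.30). It is listed beside an unnamed row, outside the naming rule, that matches mouse Tnfrsf23. That row had 914, 936 and 1075 against 752, 712 and 895 counts (log2 fold change -0.28, adjusted p = 0.350). After scaling its groups did not overlap, at 54.3 to 74.4 CPM in Veh and 47.8 to 54.0 CPM in Hcy. Over all genes, 9.27% were lower in Hcy without overlap. Reads of these related genes may be split between the rows. For all of these receptors the adjusted p was above 0.05 with edgeR's quasi-likelihood test.

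None of the 7 TRAF adaptors was called with edgeR (against 2.34% of all genes) or with DESeq2 (against 612 genes in all). An unadjusted p of at most 0.05 was found for 1 of the 7, Traf2 (14.3%, against 13.4% of all genes). The groups did not overlap for 2 of them, Traf2 and Traf4 (28.6%, against 20.1% of all genes). Traf2, which binds Tnfrsf1b and brings ubiquitin ligases to the receptors, had 454, 413 and 424 counts in Veh and 321, 327 and 419 in Hcy, without overlap after scaling (27.5 ± 1.60 against 23.3 ± 1.54 CPM, log2 fold change -0.24, SE 0.10, adjusted p = 0.320). Traf4 lay on the other side, with 230, 188 and 218 against 231, 232 and 284 counts (13.6 ± 1.56 against 16.4 ± 0.708 CPM, 0.27, SE 0.12, adjusted p = 0.378). Traf1, itself induced by NF-κB, had 296, 330 and 288 against 258, 261 and 309 counts and overlapped (-0.10, interval -0.35 to 0.14). Traf7 was the most even of the adaptors, at 80.5 to 85.0 CPM in Veh and 82.7 to 86.8 CPM in Hcy. Traf3, which restrains the alternative NF-κB pathway, ranged from 24.0 to 38.5 CPM in Veh, with its lowest value in replicate 3, and from 27.1 to 31.6 CPM in Hcy. Traf6, which also serves Toll-like and interleukin 1 receptors, ranged from 9.14 to 13.5 CPM in Veh, again lowest in replicate 3, and from 9.73 to 15.4 CPM in Hcy. Traf5 had a log2 fold change of 0.21 with an interval from -0.19 to 0.61.

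Of the ligand and receptor pairs named above, Tnfsf12 with Tnfrsf12a was the one with both partners abundant under their standard names. Their Veh means were 32.0 and 301 CPM. For Tnf, Ltb, Cd40lg, Faslg, Tnfsf11 and Tnfsf15 the receptors were read in each library, but the ligands were at 0 or too sparse to test. For Tnfsf18 and Tnfsf4 the order was the reverse, with the ligands abundant and the receptors Tnfrsf18 and Tnfrsf4 at 0 or too sparse. Several members are listed as near neighbours. Lta, Tnf and Ltb lie 1152 and 2888 bp apart on chromosome 20, and all were at or below 2 counts in each library. On chromosome 4 the gaps are 72752 bp between Cd27 and Ltbr and 35728 bp between Ltbr and Tnfrsf1a, where Ltbr and Tnfrsf1a were abundant and Cd27 was nearly unread. Tnfrsf8, listed 19050 bp from Tnfrsf1b on chromosome 5, was too sparse to test.

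Other genes of the pathway were read from 3 lists. Of 5 family genes outside the naming rule, 4 were tested. None of the 4 was called by edgeR (against 2.34% of all genes) or by DESeq2 (against 612 genes in all). An unadjusted p of at most 0.05, which 13.4% of all genes had, was found for 2: Relt (log2 fold change 0.41, adjusted p = 0.0966) and Eda2r (-0.51, adjusted p = 0.234, called without Veh replicate 3, as were 957 genes in all). Edar (1.10) and Ngfr (1.63) were near the floor. The rows matched to Tnfrsf10b and Tnfrsf23 were not on this list. With edgeR's quasi-likelihood test their unadjusted p was 0.0172 and 0.0440. Another list held 34 genes that act next to the receptors, including Tradd, Ripk1, cIAP genes, the linear ubiquitin ligase and IKK subunits. None of the 34 genes was called by edgeR (against 2.34% of all genes) or by DESeq2 (against 612 genes in all). At an unadjusted p of at most 0.05, 3 of them passed (8.82%, against 13.4% of all genes): Birc3 (cIAP2, log2 fold change 0.33, adjusted p = 0.0925), Cyld (-0.30) and Rbck1 (-0.19). Their median log2 fold change was 0.00. Without Veh replicate 3, where calls over all genes rose from 341 to 957, Birc3, Cflar and Siva1 were called.

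The list of 26 endothelial genes known to rise with TNF, which shares Traf1 with the members and Birc3 with the receptor-proximal list, had 25 genes tested and 4 called (16%, against 2.34% of all genes). E-selectin, Sele, which tethers rolling leukocytes, held 332, 417 and 262 counts in Veh and 580, 676 and 680 in Hcy (log2 fold change 0.99, SE 0.14, adjusted p = 0.0110). Vcam1, which binds leukocyte integrins, held 59, 54 and 49 against 105, 98 and 151 counts (1.16, SE 0.18, adjusted p = 0.0129). The T cell chemokine gene Cxcl10 held 266, 248 and 272 against 360, 375 and 448 counts (0.63, adjusted p = 0.0196). Tnfaip2, named for its induction by TNF, went the other way, with 1169, 1149 and 998 against 643, 703 and 747 counts (-0.62, SE 0.07, adjusted p = 0.00368). In these 4 genes no Hcy library overlapped a Veh library. The groups did not overlap for 16 of the 25 (64.0%, against 20.1% of all genes), 13 higher and 3 lower in Hcy, and the median log2 fold change was 0.24 beside -0.02 over all genes. The number called, which was 4 beside 341 over all genes, changed with the libraries and the tool. It was 8 with DESeq2 (612 over all genes) and 10 without Veh replicate 3 (957 over all genes). When any other library was left out it was 1 or 2 (80 to 151 over all genes). Tnfaip2, lower in Hcy, was called in each fit that left out 1 library. The 3 higher genes were all called without Veh replicate 3. Otherwise Sele was called only without Veh replicate 1 or 2, Vcam1 only without Hcy replicate 2, and Cxcl10 in no such fit. These lists were chosen with earlier results of the same libraries known and carry no test of their own.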

How the data were processed

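Poly(A) RNA of 3 Hcy and 3 Veh cultures of rBMECs was sequenced. The authors deposited raw counts per gene. The submitters' processing notes name fastp, HISAT2 2.2.1, StringTie 2.2.3, Cufflinks, featureCounts 2.0.6 and DESeq2 1.42.0, without roles. Strandedness was not given, so overlapping and antisense genes cannot be told apart. The notes name mRatBN7.2, but listed positions reach 282724300 on chromosome 1, so they are given as listed, without a build. The authors' comparison table (normalized values, fold changes, p-values) was not used.

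Genes with 10 or more summed counts (14603) were TMM-scaled and compared by edgeR 4.0.16 (R 4.3.3, with limma 3.58.1), using the quasi-likelihood F test on condition alone and Benjamini-Hochberg adjustment over all of them. SE was the absolute log2 fold change, taken without the prior count, over the root of F. CPM was TMM-scaled. Scripts were tested on simulated data.

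The members, lists and naming rule were chosen with earlier results of these data known. Named were members with an adjusted or unadjusted p of at most 0.05, the 4 highest per length in each class, all TRAFs, known ligand and receptor pairs, and called list genes. Alternatives were DESeq2 1.42.0, other scalings, filters and prior counts, protein-coding genes alone, robust dispersion, a replicate block and leaving out each library. Ratios without each library, the lists under each alternative and the promoter motifs were chosen after seeing the data.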

Additional observations from a re-analysis of the deposited data

How the results depend on the processing

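Tnfsf18 was called under each alternative run, with log2 fold changes of -1.20 to -1.13 and an adjusted p of at most 0.00403. Tnfrsf1b kept its direction throughout. Its call was lost when any library other than Veh replicate 3 was left out, and with the replicate block (-0.51, adjusted p = 0.0525). Fas was called by DESeq2 (-0.44, adjusted p = 0.0214), and over the fits that left out 1 library its adjusted p was 0.0504 to 0.247. The cause was not tested.

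The 2 members called fell to 1 with the replicate block and 1 with a log2 fold change limit of 1, and rose to 8 at an unadjusted p (3 higher against 0, 5 lower against 2). Leaving out 1 library gave 1 to 2. Over all genes, the 341 calls became 612 with DESeq2, 71 with the fold limit, 1955 at an unadjusted p, and 80 to 957 with 1 library left out, the highest without Veh replicate 3. The endothelial TNF-responsive list went from 4 calls to 8 with DESeq2 and 1 to 10 with 1 library left out. The receptor-proximal list gave 0 to 3 and the family genes outside the rule 0 to 1, both above 0 without Veh replicate 3.

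Of the 27 members tested, 21 never changed sign. The other 6 did so when 1 library was left out: Ltbr (-0.092 to 0.021), Tnfrsf11b (-0.11 to 0.020), Tnfsf12 (-0.083 to 0.14), Traf3 (-0.26 to 0.073), Traf6 (-0.20 to 0.15) and Tnfrsf11a (-0.20 to 0.094). The members' median lay between -0.02 and 0.04 in these fits. The replicate numbers showed no clear pairing of the libraries. Deviations of equally numbered libraries correlated at -0.00868, 0.11 and 0.0484, and those of differently numbered libraries at -0.137 to 0.0941. With 3 libraries per group these correlations cannot exclude a shared isolation or day. The replicate block gave 298 calls over all genes. Rare members such as Tnfsf9, Tnfrsf9 and Tnfrsf13c had 28, 22 and 15 counts over the 6 libraries, and their intervals were wide.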

Other observations

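Outside the naming rule, 2 further rows whose protein match in the table is a family member were at 0 in each library: LOC103689974, matched to Tnfsf11, and AABR07026596.2, matched to Tnfsf13b.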
